A study of Mus musculus with 6 samples.

Results

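The genes described are the stanniocalcins Stc1 and Stc2, 6 genes known to be induced by hypoxia (Angptl4, Car9, Egln3, Adm, Bnip3 and Ndrg1), and Hif1a and Epas1, which encode oxygen-regulated subunits of the hypoxia-inducible factors (HIFs). They were taken by symbol from a table of gene counts in mouse lung, where each of the 10 had a row, out of 29753 rows used. All are protein-coding, annotated on GRCm38 (GENCODE vM21) with Stc1 at chr14:69029238-69041804, Stc2 at chr11:31357307-31370074, Hif1a at chr12:73901375-73947530, Epas1 at chr17:86753700-86833410, Egln3 at chr12:54178981-54203860, Bnip3 at chr7:138890836-138909519, Car9 at chr4:43506966-43513729, Ndrg1 at chr15:66929318-66969640, Angptl4 at chr17:33773750-33781830 and Adm at chr7:110627661-110629820. All 10 were among the 17686 genes with enough counts to be tested. The genes were chosen by symbol and by their counts at D14 and D0 in these same libraries. The lungs were those of balb/c mice that had received K7M2 osteosarcoma cells, a metastatic mouse line, by orthotopic implantation. They were taken 14 days (D14) or 0 days (D0) later, with 3 bulk RNA-seq libraries for each day. Both days belong to implanted mice, and no D14 group without K7M2 cells was analysed here, so tumour, procedure, age and day of collection cannot be told apart. The labels give neither ages and sexes of the mice nor whether each library came from 1 mouse, and p-values therefore measure the spread between these libraries.

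HIFs are transcription factors made of an oxygen-regulated alpha subunit, such as HIF1A or EPAS1 (HIF-2 alpha), and the stable subunit ARNT. In the presence of oxygen, prolyl hydroxylases of the EGLN family mark the alpha subunits for VHL-dependent degradation, so the pathway is controlled mainly at the protein level and the mRNA of an alpha subunit does not report its activity. In the lung, EPAS1 is best known from endothelium and alveolar epithelium. Stanniocalcins are secreted glycoproteins first described in fish as regulators of calcium. In mammals they act locally, and both can inhibit the metalloproteinase PAPP-A.

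Library totals ran from 14878101 to 17385006 counts. The tissue label held up against lung markers. Sftpc, the surfactant protein of alveolar type 2 cells, ranged over 12446 to 34630 CPM (depth-scaled counts with TMM factors, as are all CPM here). Markers of other tissues varied between libraries. The summed CPM of 8 adipocyte markers was 46.6, 139 and 1075 in the D14 libraries and 50.5, 260 and 615 in the D0 libraries. The sum of the red cell markers (7 of 8 in the table) was 16440 to 28910 CPM at D14 and 9242, 18920 and 52470 CPM in D0 replicates 1, 2 and 3. Of 8 osteoblast lineage markers, 4 could be tested, Sp7 and Bglap had at most 2 counts in a library, and Ibsp and Dmp1 were not among the rows used.

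HIFs bind DNA at a short core whose letters are ACGTG or GCGTG. Sequences from 250 bases before to 50 bases after the RefSeq gene start (GRCm38.p6) were read for 6 of the 10 genes (Adm, Bnip3, Car9, Egln3, Hif1a and Stc2). Those of Stc1, Angptl4, Ndrg1 and Epas1 were not analysed here. The 250 bases before the start are shown for Car9, Egln3 and Bnip3, the 3 target genes whose levels varied most among the D0 libraries. Each sequence runs 5′ to 3′ on the gene's strand, and capitals mark the core on either strand.
Car9, chr4:43506776-43507025, plus strand: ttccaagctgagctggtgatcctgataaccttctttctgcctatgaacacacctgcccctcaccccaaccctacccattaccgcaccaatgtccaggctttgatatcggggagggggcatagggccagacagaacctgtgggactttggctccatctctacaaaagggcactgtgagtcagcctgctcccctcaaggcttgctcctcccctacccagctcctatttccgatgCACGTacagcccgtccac
Egln3, chr12:54203875-54204124, minus strand: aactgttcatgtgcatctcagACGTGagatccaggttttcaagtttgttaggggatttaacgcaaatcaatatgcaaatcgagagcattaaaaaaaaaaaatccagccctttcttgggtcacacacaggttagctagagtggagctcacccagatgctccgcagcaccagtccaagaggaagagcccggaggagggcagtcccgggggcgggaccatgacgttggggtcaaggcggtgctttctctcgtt
Bnip3, chr7:138909507-138909756, minus strand: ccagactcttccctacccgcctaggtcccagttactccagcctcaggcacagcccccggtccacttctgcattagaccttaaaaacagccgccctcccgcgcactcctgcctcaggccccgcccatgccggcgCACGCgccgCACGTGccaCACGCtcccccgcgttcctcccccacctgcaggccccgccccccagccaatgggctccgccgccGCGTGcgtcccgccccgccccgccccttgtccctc
Car9 had 1 match, at position −18 from the start, and Egln3 had 1, at −229. Bnip3 had 5 matches, of which the pair at −108 and −107 overlap as CACGTG read on both strands. In the full 300 bases, 6 of 6 matched genes held a core, against 43.8% of 32851 promoters of that length, and 4 of 6 held ACGTG, against 19.6%. The G and C content of the 6 promoters was 54.7% to 71.7%, above the median of 52.7% of all promoters. These short letters are a description of the sequence, and whether HIFs bind there was not tested.

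Stc1 was the gene of the 10 with the widest separation between the days. Its level was 32.6, 25.3 and 32.9 CPM in the D14 libraries and 7.67, 9.71 and 5.55 CPM in the D0 libraries (563, 396 and 513 counts, against 132, 152 and 79 counts). Every D14 library lay above every D0 library, and the lowest D14 value was above the highest D0 value by more than the range within either day. The means were 30.2 ± 4.33 CPM at D14 and 7.64 ± 2.08 CPM at D0 (SD, n = 3 each). The log2 fold change was 1.98 (SE 0.24). Stc2 had 3.48, 3.00 and 2.82 CPM at D14 and 2.79, 3.58 and 2.88 CPM at D0. Its ranges overlapped, with a log2 fold change of 0.01 (SE 0.26) on 41 to 60 counts per library. Per kb of the longest annotated transcript, Stc1 stood at 7.21 ± 1.03 CPM at D14 and 1.82 ± 0.496 CPM at D0, and Stc2 at 0.778 ± 0.0852 and 0.774 ± 0.108 CPM. The lowest Stc1 library, at 1.32 CPM per kb, was above the highest Stc2 library, at 0.899 CPM per kb.

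Endothelial and muscle markers, a selection of the cell types looked at, stood beside the Stc1 difference as follows. The summed CPM of 8 endothelial markers was 5393, 5303 and 5414 at D14 and 4868, 3491 and 2628 at D0. Stc1 per 1000 CPM of that sum was 6.05, 4.76 and 6.07 CPM at D14 and 1.58, 2.78 and 2.11 CPM at D0, a ratio chosen after the values were seen, and the days did not overlap on this scale. Of 8 skeletal and cardiac muscle markers, 2 cardiac ones had D14 ranges above the D0 ranges, against 10.9% of all genes, and 6 overlapped. Log2 fold changes of the 8 ran from −2.53 to 3.94, with 5 positive and 3 negative. The skeletal markers Acta1 and Ckm stood at −2.53 (SE 1.42) and −2.03 (SE 0.80), Myl1 at −1.11 (SE 0.66) and Myh4 at 0.48 (SE 1.45). The days overlapped in each of these skeletal markers. Myh6, the cardiac alpha myosin heavy chain, had 123.3, 88.8 and 207 CPM at D14 and 53.1, 50.1 and 39.3 CPM at D0. Nppa, the atrial natriuretic peptide, had 7.24, 5.74 and 79.2 CPM at D14 and 1.40, 2.24 and 2.39 CPM at D0. The part of other cell types in the Stc1 difference was not tested. In bulk tissue, fewer cells of a type and less RNA per cell cannot be told apart.

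**Figure D1:**
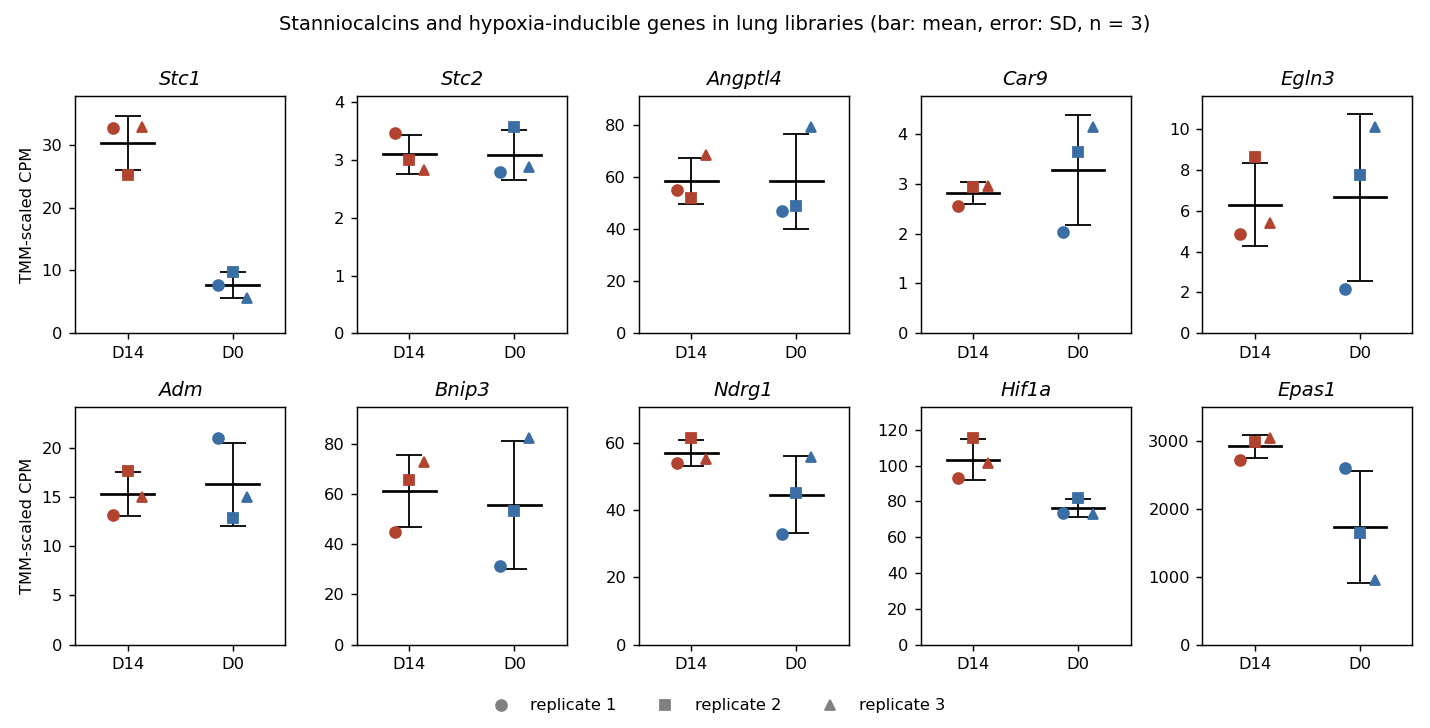
TMM-scaled CPM (vertical axes, starting at 0) of each gene in 3 D14 and 3 D0 lung libraries. Points are libraries with the replicate number as symbol, bars are means and error bars SD. Stc1, Hif1a and Epas1 have all D14 points above all D0 points, and the other 7 genes overlap.

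Since these values chose the genes, their differences are given as a description. The p-values below come from fits over all genes and cannot serve as support for a gene chosen this way. None of the 10 passed an adjusted p of 0.05 over all genes tested (edgeR quasi-likelihood test, two-sided, Benjamini-Hochberg), where 0.0339% of genes did (0.017% higher and 0.017% lower at D14). At an unadjusted p of 0.05, 2 of 10 passed (Stc1 and Hif1a, both higher at D14), against 12.6% of all genes (5.48% higher and 7.09% lower). DESeq2 called 1 of the 10 (Stc1; adjusted p = 3.35e-10), against 1.68% of genes with an adjusted p, and limma-voom called 0, against 0.0339%. In the edgeR fit Stc1 had an adjusted p of 0.0786, and of 0.0419 without D0 replicate 3, where 0.121% of genes were called. Over all alternatives it ran from 3.35e-10 to 0.27. The D14 range lay above the D0 range in 3 of 10 genes and below it in 0, against 10.9% and 10.7% of all genes and 21.6% in either direction. Nothing is read from these counts and p-values. The log2 fold changes ran from −0.22 to 1.98 with a median of 0.07, against −0.03 over all genes.

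Hif1a, the alpha subunit found in most cell types, had 92.9, 115 and 101 CPM in the D14 libraries and 73.7, 81.9 and 72.7 CPM in the D0 libraries. The D14 values lay above all D0 values, and the highest D0 value was in replicate 2. The means were 103 ± 11.4 CPM at D14 and 76.1 ± 5.07 CPM at D0, a log2 fold change of 0.44 (SE 0.14).

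Epas1 was the most abundant of the genes. It had 2726, 2986 and 3047 CPM in the D14 libraries and 2602, 1644 and 948 CPM in the D0 libraries. D0 replicate 1 lay just under the D14 range, and D0 replicate 3 had the lowest level. From highest to lowest, the D14 libraries differed by a ratio of 1.12 and the D0 libraries by 2.75. The means were 2920 ± 171 CPM at D14 and 1732 ± 831 CPM at D0, a log2 fold change of 0.75 (SE 0.34). Leaving out D0 replicate 1 gave 1.18, and leaving out D0 replicate 3 gave 0.46.

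Endothelial markers stood beside Epas1 as follows. Of 8 markers tested, 7 had a positive log2 fold change, against 46.9% of all genes, and 4 had D14 ranges above the D0 ranges, against 10.9%. With edgeR 0 of 8 passed the threshold over all genes, against 0.0339% of all genes. An unadjusted p under 0.05 was seen in 3, all higher at D14, against 12.6% of all genes (5.48% higher). Their sum was lowest in D0 replicate 3, as was Epas1. Divided by that sum, a ratio chosen after the values were seen, Epas1 was 0.505, 0.563 and 0.563 at D14 and 0.535, 0.471 and 0.361 at D0. On this scale the days overlapped, and the ratio of the D14 mean to the D0 mean was 1.19, against 1.69 for Epas1 CPM. The part of endothelial RNA in the Epas1 difference was not tested.

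**Figure D2:**
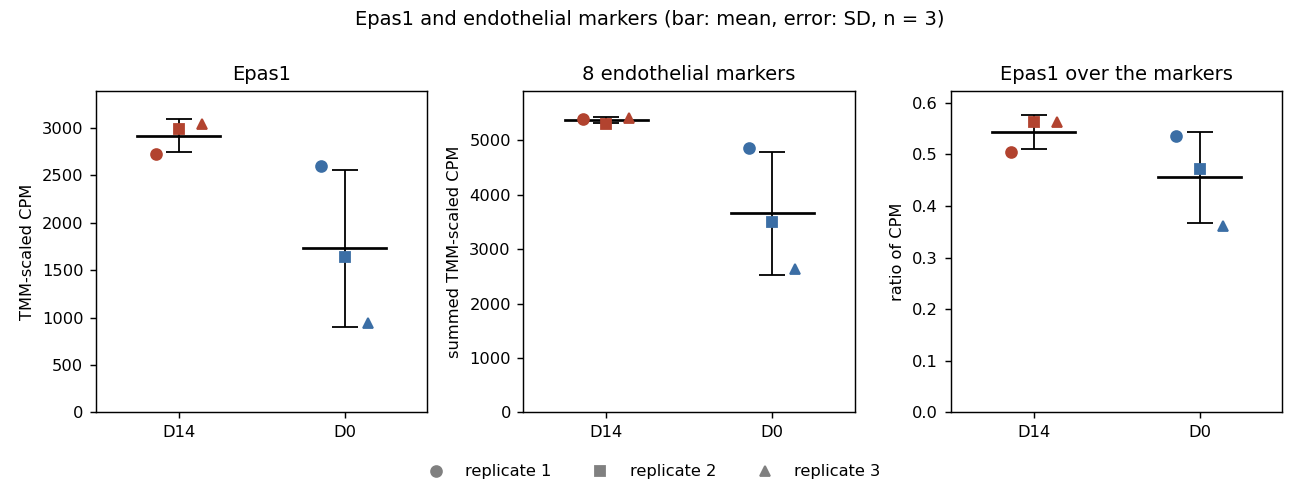
Epas1 CPM, the summed CPM of 8 endothelial markers and the ratio of both (vertical axes, starting at 0) in D14 and D0 libraries. Points are libraries, bars means, error bars SD (n = 3). The D14 libraries lie above the D0 libraries in CPM, from 2726 against at most 2602 for Epas1, and overlap them in the ratio.

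Car9, Egln3 and Bnip3 differed more among the D0 libraries than between the days. Egln3, a prolyl hydroxylase that HIFs induce and that hydroxylates them in turn, had 4.87, 8.61 and 5.38 CPM at D14 and 2.15, 7.73 and 10.1 CPM at D0. Its D0 libraries lay on both sides of the D14 range, with a ratio of highest to lowest of 4.70, against a median of 1.51 over all genes. The log2 fold change was −0.08 (SE 0.52), with −0.50 when D0 replicate 1 was left out and 0.35 when D0 replicate 3 was.

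Bnip3, a mitochondrial outer membrane receptor for mitophagy, had 45.0, 65.8 and 72.9 CPM at D14 and 31.5, 53.2 and 82.4 CPM at D0. D0 replicate 1 was again the lowest of the 6 libraries and D0 replicate 3 the highest, and the log2 fold change was 0.14 (SE 0.35). Leaving out the same libraries in turn gave −0.14 and 0.53.

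Car9, a membrane carbonic anhydrase that acidifies the extracellular space, had 2.55, 2.93 and 2.95 CPM at D14 and 2.03, 3.64 and 4.14 CPM at D0. The lowest and the highest library were the same D0 libraries as for Egln3 and Bnip3. The log2 fold change was −0.22 (SE 0.33) on 35 to 59 counts per library. Car9 is uncertain because an antisense gene, Gm12454, overlaps it with 15 to 47 counts per library, and no source used here states how strand was handled.

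Ndrg1, a stress-induced cytoplasmic protein, had 54.2, 61.5 and 55.3 CPM at D14 and 32.9, 45.2 and 55.8 CPM at D0. Only D0 replicate 3 reached the D14 range. The log2 fold change was 0.35 (SE 0.20).

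Angptl4, a secreted inhibitor of lipoprotein lipase that PPARs also induce, had 54.9, 51.8 and 68.3 CPM at D14 and 46.9, 48.7 and 79.2 CPM at D0. The means of both days were 58.3 CPM, and the highest library of each day was replicate 3, which also had that day's highest adipocyte sum. The log2 fold change was 0.00 (SE 0.24).

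Adm, the vasodilator peptide adrenomedullin, had 13.1, 17.7 and 14.998 CPM at D14 and 20.99, 12.8 and 15.03 CPM at D0. Unlike the other target genes it was highest in D0 replicate 1. The log2 fold change was −0.09 (SE 0.23), and it was 0.14 without that library.

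The same D0 library was low for genes of glycolysis that HIFs are known to induce. Of 18 such genes, 14 (77.8%) had their lowest D0 value in replicate 1, as did 6 of the 10 genes described here, against 34.0% of all genes tested. The highest D0 value fell in replicate 3 for 10 of the 18 (55.6%), against 38.8% of all genes. Ldha, which makes lactate, had 282, 243 and 256 CPM at D14 and 187, 230 and 299.6 CPM at D0. D0 replicate 1 also had the lowest sums of red cell markers and of muscle markers (166 CPM) of the 6 libraries, and D0 replicate 3 the highest of both (muscle 765 CPM, of which the skeletal genes Acta1 and Ckm made up 327 and 302 CPM). Cardiac Myh6 was instead lowest in D0 replicate 3. Their part in these levels was not tested.

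**Figure D3:**
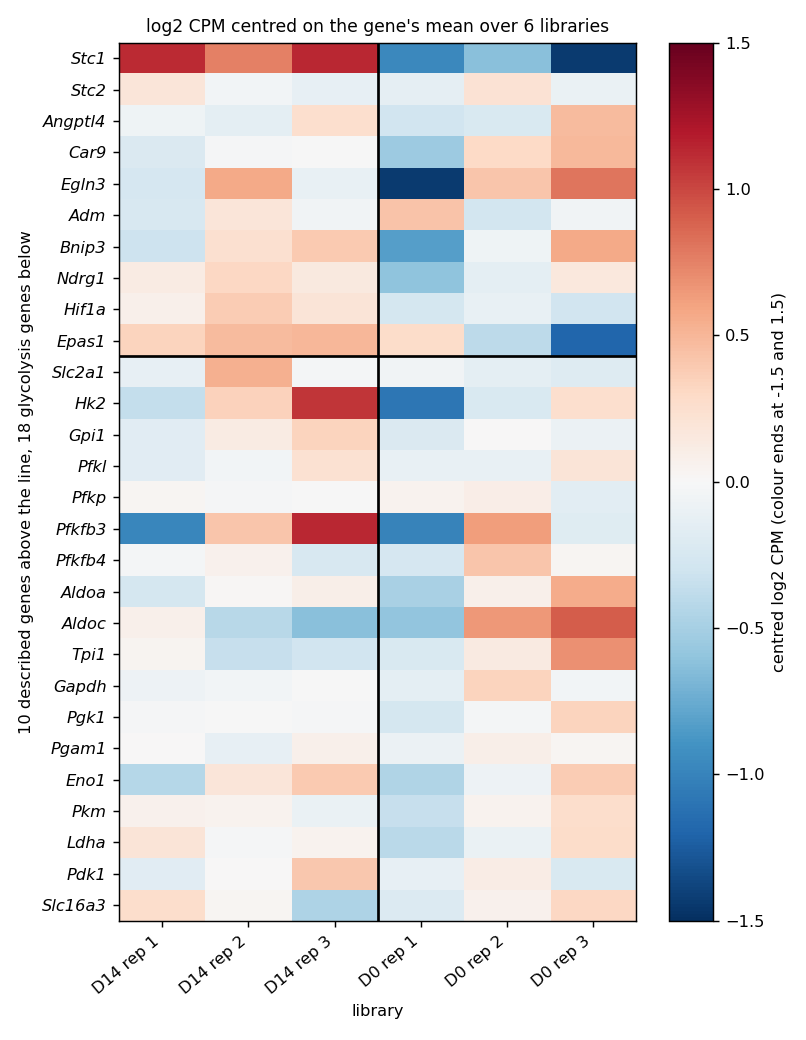
log2 CPM of the 10 genes and of 18 glycolysis genes (rows), centred on each gene's mean over the 6 libraries (columns, D14 left of the line and D0 right of it). Red is above the gene's mean and blue below. D0 replicate 1 is blue for Egln3, Bnip3, Car9 and most glycolysis genes, and Stc1 is red in all D14 libraries.

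Per kb of the longest annotated transcript and over all 6 libraries, Epas1 stood at 422 CPM, Bnip3 at 33.3, Hif1a at 19.0, Angptl4 at 17.6, Ndrg1 at 12.6, Adm at 11.4, Stc1 at 4.51, Egln3 at 2.43, Car9 at 1.504 and Stc2 at 0.776 CPM. The library ranges of neighbours in this order overlapped except between Epas1 and Bnip3, between Adm and Stc1, and between Car9 and Stc2. With the union of annotated exons as length, Hif1a (15.2) came after Angptl4 (16.5) and Ndrg1 (7.70) after Adm (9.75). At D0 alone the order of means differed, with Angptl4 before Hif1a, Adm before Ndrg1, and Egln3 (2.504) before Stc1 (1.82). Epas1 exceeded Hif1a per kb in every library, by a ratio of 25.1, 22.1 and 25.8 at D14 and 30.3, 17.2 and 11.2 at D0.

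**Figure D4:**
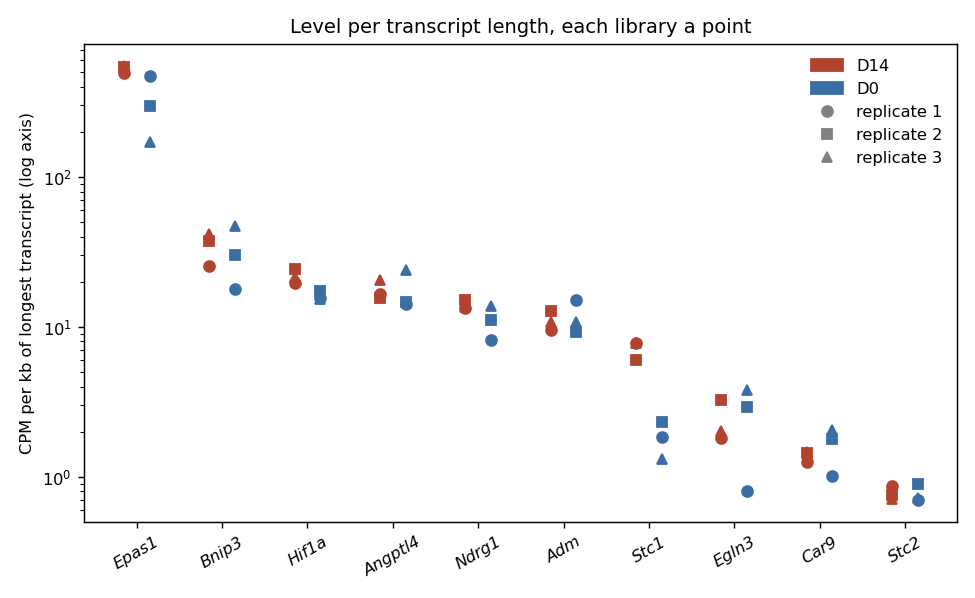
CPM per kb of the longest transcript (log axis) of the 10 genes, ordered by their mean over 6 libraries. Each point is a library, with colour for the day and symbol for the replicate number. Epas1 lies apart from the other genes, between 172 and 553 CPM per kb, and Stc1 splits by day.

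The genes most like Stc1 over the 6 libraries, by the mean absolute difference of centred log2 CPM among 11116 genes of at least 10 CPM, were Svbp (0.162), Spry4 (0.201) and Akap12 (0.239). Akap12, a scaffold protein of protein kinase A, had 790, 663 and 535 CPM at D14 and 241, 193 and 128 CPM at D0. For Stc2 they were Fam114a1 (0.0331), Thsd4 (0.0412) and M6pr (0.0475), genes whose days also overlapped.

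Around these genes, 7 lists of pathway partners held 97 tested genes. With edgeR 0 of the 97 passed the threshold over all genes, 17 had an unadjusted p under 0.05 (12.6% of all genes did), and 58 had a positive log2 fold change, against 46.9% of all genes. DESeq2 called 5 of them, all higher at D14, among them Ackr3, Ramp3, Bhlhe40 and Lox, where it called 1.68% of all genes with an adjusted p (168 higher and 106 lower). limma-voom called 0 of the 97. The lists were written with earlier results of these data known, so their counts are descriptions.

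HIF regulators (14 tested) had a median log2 fold change of 0.17 (0.08 to 0.28 over the alternatives). The hydroxylase Egln1 stood at −0.02 (SE 0.13) and the coactivator Ep300 at 0.20 (SE 0.24). Those with the smallest p were Cul2, the scaffold of the VHL ubiquitin ligase, with 36.9 ± 4.29 CPM at D14 and 26.8 ± 1.54 CPM at D0 (0.46, SE 0.15), and Cited2, which competes with HIF1A for coactivators, with 49.7 ± 4.84 and 78.1 ± 22.2 CPM (−0.65, SE 0.23). Each had an adjusted p of 0.364 (edgeR).

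Glycolysis and glucose uptake genes (18 tested) had a median log2 fold change of −0.00, whose sign turned in 8 of 15 alternatives (−0.07 to 0.13). The days did not overlap in 0 of 18, against 21.6% of all genes. The glycolytic enzymes Aldoa and Pkm stood at −0.15 (SE 0.27) and −0.00 (SE 0.19), and Aldoc and Tpi1, with the smallest p, at −0.74 (SE 0.40) and −0.43 (SE 0.25). Gapdh had only 3.20 to 4.47 CPM. It has many near-identical pseudogene copies, as have other enzymes of the list, so their counts are uncertain.

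The other HIF targets (29 tested, Epo being below the count filter with at most 1 count) had a median log2 fold change of 0.01 (−0.04 to 0.17 over the alternatives, with the sign turned in 2), and the lowest value was −1.48, for Ankrd37. D14 lay above D0 in 10 of 29 and below in 1, against 10.9% and 10.7% of all genes. Bhlhe40, a transcriptional repressor, had 107, 141 and 93.6 CPM at D14 and 47.3, 59.2 and 61.4 CPM at D0, 1.03 on the log2 scale (SE 0.20), with an adjusted p of 0.280 by edgeR. Vegfa, the angiogenic growth factor, stood at −0.28 (SE 0.18) and Trf, transferrin, at −0.29 (SE 0.30).

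The receptor genes of adrenomedullin (5 tested) had a median log2 fold change of 0.55 (0.46 to 0.73 over the alternatives), and D14 lay above D0 in 3 of 5, against 10.9% of all genes. Ackr3, a scavenging receptor for adrenomedullin and CXCL12, had 101, 96.9 and 85.4 CPM at D14 and 43.4, 48.7 and 40.03 CPM at D0. Its log2 fold change was 1.10 (SE 0.15), with an adjusted p of 0.0843 by edgeR and of 7.49e-08 by DESeq2. The receptor subunit Ramp3 had 13.4, 16.8 and 17.0 CPM at D14 and 4.48, 6.39 and 9.76 CPM at D0 (1.20, SE 0.30). Ramp2 stood at 0.55 (SE 0.18) and Calcrl, the shared receptor, at 0.44 (SE 0.25). The endothelial marker sum was also higher in every D14 library, and its part in these receptor values was not tested. Their ligand Adm had overlapping days, as given above.

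Pappalysins, their IGF-binding substrates and the IGF genes (6 tested) had a median log2 fold change of 0.25 (0.01 to 0.51 over the alternatives). The days did not overlap in 0 of 6, against 21.6% of all genes. Igfbp5 and Igfbp4 stood at −0.17 (SE 0.33) and 0.08 (SE 0.14), Igf1 at 0.49 (SE 0.27) and Pappa, the protease that stanniocalcins inhibit, at 0.56 (SE 0.48) on 0.988 to 4.94 CPM. ANGPTL4 partners and PPAR-responsive genes (14 tested) had a median of 0.15 (−0.08 to 0.35 over the alternatives). Pdk4, a pyruvate dehydrogenase kinase, had 38.7, 58.3 and 139 CPM at D14 and 9.54, 31.9 and 38.8 CPM at D0 (1.56, SE 0.61), with overlap at D14 replicate 1. Cd36, a fatty acid receptor, stood at 0.68 (SE 0.23) and Gpihbp1, which carries lipoprotein lipase on capillaries, at 0.41 (SE 0.21). Relatives of the described genes (11 tested) had a median of 0.25 (0.17 to 0.33 over the alternatives). Among them Angpt1, a ligand of the endothelial receptor Tek, stood at 0.47 (SE 0.15), Ndrg3 at 0.44 (SE 0.21) and Car4 at 0.22 (SE 0.15). Car3, an adipocyte and muscle carbonic anhydrase, ranged from 22.5 to 953 CPM within D14 alone (0.87, SE 1.39).

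**Figure D5:**
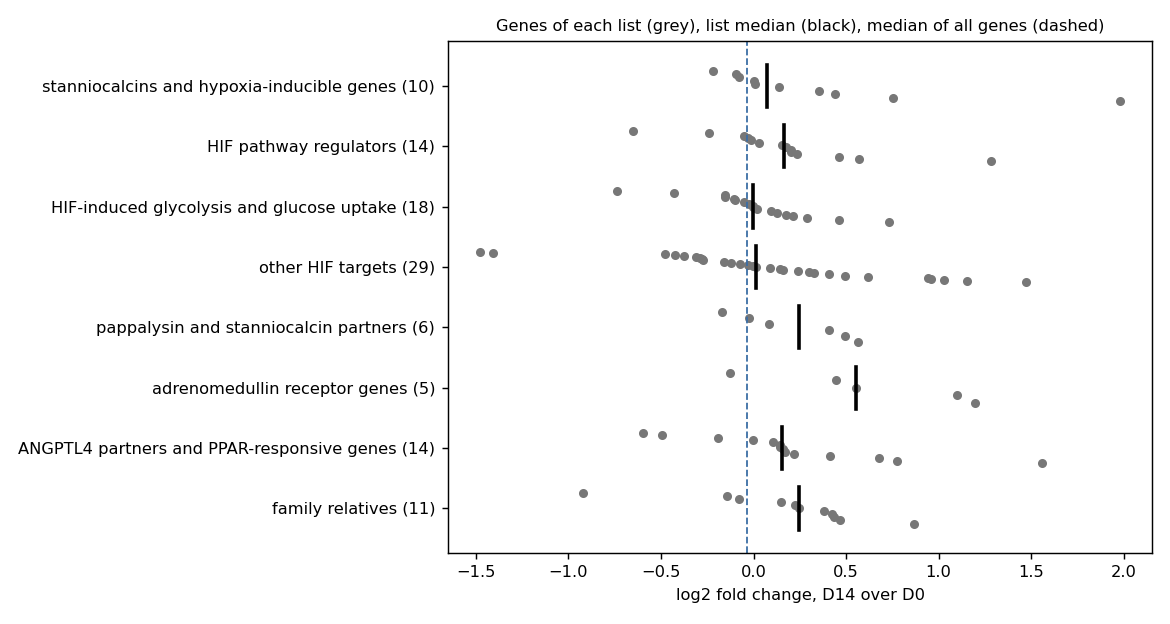
log2 fold change of D14 over D0 (horizontal axis) for each tested gene (grey points) of the 10 described genes and 7 partner lists, with the number tested in brackets. Black bars are list medians and the dashed line the median of all genes, −0.03. Stc1, at 1.98, is the point farthest to the right.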

How the data were processed

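Bulk RNA-seq of balb/c lungs was analysed, 3 libraries at D14 and 3 at D0. Per the labels' protocols, total RNA was extracted with TRIzol; that text names macrophages, while the tissue label gives lungs. The submitters' processing notes name GRCm38 as build and, without roles or order, edgeR, StringTie 1.3.4b, HISAT2 2.1.0 and CASAVA 1.8. Strand handling, counting tool and annotation release are not stated there. The values the authors deposited are estimated counts by gene symbol, with no depth scaling. They were rounded to whole numbers, which changed no value used. Of 29757 lines, 4 were left out (2 empty and 2 with values that are not whole), and of 50 lines repeating a symbol the one with the highest total kept it.

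Genes were tested with edgeR 4.0.16 in R 4.3.3 (TMM factors, default low count filter, robust quasi-likelihood F test, no covariate, all 6 libraries) and p-values adjusted over all genes. Each SE was obtained from the fold change and its F statistic. log2 CPM for likeness used a prior count of 2. DESeq2 1.42.0 and limma 3.58.1 (voom) were alternatives. A permutation of 3 against 3 libraries can give no p below 0.1, so none was used.

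The genes and lists were chosen with earlier results of these data known. Beyond the 10 genes, those named in each list are by rule the 2 with the highest mean CPM and the 2 with the smallest p. Ldha, Gapdh, Ankrd37, Lox, Myh6, Nppa, Acta1, Ckm, Myl1 and Myh4, named besides, were chosen after their values were seen. A gene that this rule names is not reported here. Transcript lengths and overlapping genes come from GENCODE vM21 (GRCm38), promoters from RefSeq.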

Additional observations from a re-analysis of the deposited data

How the results depend on the processing

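Over 9 other settings with all libraries and 6 fits leaving out 1 library, the log2 fold change of Stc1 ran from 1.801 to 2.20 and those of Hif1a, Epas1, Ndrg1 and Car9 kept their sign. That of Car9 ran from −0.46 without D0 replicate 1 to −0.01 without D0 replicate 3. The sign of Egln3 turned in 6 of 15, of Angptl4 in 5, of Stc2 in 4 and of Adm and Bnip3 in 2 each. Among all genes the count called, 6, became 274 with DESeq2, 26 with no low count filter and 0 with the replicate number as a block. Among the 10 genes it became 1 (Stc1) with DESeq2 and with no low count filter, among the other HIF targets 3 with DESeq2, and among adrenomedullin receptor genes 2 with DESeq2 and 1 with no low count filter. Leaving out 1 library gave 0 to 22 calls over all genes (22 without D0 replicate 3, 0 without any one of the D14 libraries) and 0 to 1 among the 10. Deviations of same-numbered libraries from their day's mean correlated at 0.119, −0.0548 and −0.0972. Those of differently numbered libraries correlated at −0.168 to 0.183. Because deviations from a mean of 3 libraries constrain each other, these values cannot decide whether the numbers pair the libraries. The labels do not say so either. With the replicate block Stc1 stood at 2.01 (adjusted p = 0.27, edgeR). When only ACGTG was searched for, 19.6% of all promoters held it, with or without GCGTG. Stc2 and Car9 had the lowest counts of the 10 genes, 35 to 60 per library.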
